A study of Caenorhabditis elegans with 9 samples.

Results

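Sorted oocyte P-bodies were compared with extracts of whole female animals of Caenorhabditis elegans, 3 libraries against 3 of the 9 in the series, across all 46778 genes of the deposited count table. The 6 libraries were picked by their labels, and the comparison was chosen with earlier results of these data known. All groups shared 1 genotype, a fog-2 strain whose label adds car1:GFP and pgl1:RFP, and all animals were female and taken on day 3. The labels give the stage both as L4 and as oocyte arrest, and they name no allele of fog-2. P-bodies were selected by a sort called FAPS, while whole animals went through neither dissection nor sorting and held soma and germline. The other 3 libraries, of dissected oocytes of the same strain, enter below only as side values that place each difference. P-bodies are therefore compared here with a mixture of tissues, so a value joins 2 differences, that between the granules and the oocyte and that between the oocyte and the rest of the animal. In bulk RNA of this kind fewer cells of a type and less RNA per cell cannot be told apart.

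P-bodies are cytoplasmic granules without a membrane that gather mRNA with repressors of translation and with enzymes that remove the cap and the poly(A) tail. In oocytes that wait for fertilization, granules of this kind hold maternal messages that are stored for the embryo. CAR-1 and the helicase CGH-1 are RNA-binding proteins of these granules, and PGL-1 is a protein of the germ granules, a separate compartment beside the nuclei. FOG-2 promotes sperm formation in hermaphrodites, and animals without it make oocytes only.

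The libraries held 44416333 to 78685226 counts, but those counts were spread over very different RNA. Ribosomal RNA genes took 38.04%, 29.8% and 32.3% of all counts in P-bodies and 91.6%, 91.7% and 91.4% in whole animals. Protein-coding genes took 61.4%, 69.8% and 67.2% in P-bodies and 7.602%, 7.26% and 7.52% in whole animals. The groups did not overlap in either class (two-sided exact permutation test, p = 0.1 for both, the smallest that 3 against 3 allows). Messages of P-bodies were thus counted 45262531 to 54937023 times per library and those of whole animals 3226465 to 5129627 times, so low messages were measured less well in whole animals. The debris-removing spin before RNA extraction was left out for P-bodies alone, and its part in the make-up was not tested. Sperm genes took 0.00829% to 0.00914% of protein-coding counts in P-bodies and 0.0123% to 0.0234% in whole animals, and fog-2 had at most 18 counts in any library and was not tested.

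Of 10162 genes with enough counts to test, 6790 were called (66.8%), 2840 of them higher (27.9%) and 3950 lower (38.9%) in P-bodies. Calls are at a Benjamini-Hochberg adjusted p under 0.05 in edgeR's quasi-likelihood test, and the adjusted p-values of genes given later come from it. Values are log2 fold changes of P-bodies over whole animals with standard errors (SE), and levels are CPM, read counts divided by the TMM-scaled library size, which sets the typical gene to no change. With library totals in place of TMM the median gene moved up by 3.18 on the log2 scale, and 7781 genes were higher and 989 lower. All 2840 genes called higher and the 989 genes lower with library totals were called in the same direction by TMM, but 2161 genes called lower by TMM had a positive value with library totals. A direction below is therefore relative to the typical gene, and the value with library totals is given for the lists and for each called gene whose sign it turns.

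The differences were not symmetric. A change of 2-fold or more was reached by 1695 genes called higher and 3009 called lower, one of 4-fold or more by 328 and 2284, and one of 16-fold or more by 51 and 1464. The 51 genes at least 16-fold higher were all rare messages, with at most 1.03 CPM on average in P-bodies, and 41 of them had 0 counts in every whole-animal library. Of genes at least 4-fold higher only 36 reached 50 CPM in P-bodies. Of the 1464 genes at least 16-fold lower only 74 reached 50 CPM in whole animals. The filter can keep a low gene through 1 group alone, so large changes of rare messages can follow in part from it, in both directions. The values of the 9622 protein-coding genes formed a broad peak around 0 and a second, smaller peak near -5. In that second peak 804 genes lay between -5.5 and -4.5, more than the 384 between -4 and -3 or the 401 between -3 and -2. The part of the filter in this peak was not tested.

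**Figure D1:**
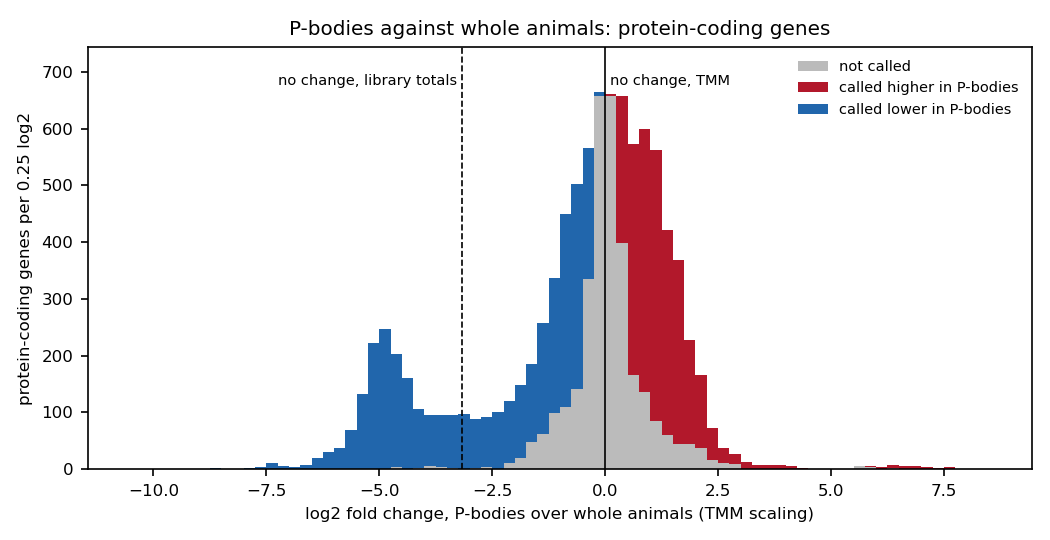
Number of protein-coding genes (vertical axis, per 0.25 on the log2 scale) by log2 fold change of P-bodies over whole animals, with genes called higher in red, called lower in blue and not called in grey. The solid line marks no change with TMM and the dashed line no change with library totals, 3.18 lower, and the 804 genes between -5.5 and -4.5 form a separate peak left of both.

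Among protein-coding genes that carry a class symbol and reach 50 CPM, leaving out the histone, ribosomal protein, collagen and major sperm protein families, the 12 largest rises lay within a narrow range, from 2.16 to 2.34, or 5.34 to 5.53 with library totals. The leading gene was mbk-1, a kinase of the DYRK family (WBGene00003149, X 14819909 to 14824540). It stood at 69.2, 72.6 and 77.2 CPM in P-bodies and at 15.9, 12.9 and 14.2 in whole animals. Every P-body library lay far above every whole-animal library, a 5.08-fold rise (log2 2.34 ± 0.13, adjusted p = 1.52e-08). Its relative mbk-2, the kinase that acts at the passage from oocyte to embryo (WBGene00003150, IV 13009116 to 13035955), stood at 443, 449 and 478 CPM against 91.4, 90.5 and 91.5 (2.32 ± 0.10, adjusted p = 5.07e-09). The histone H3 demethylase gene rbr-2 (IV 10920075 to 10926807) stood at 457, 548 and 552 CPM against 101, 102 and 105 (2.34 ± 0.12, adjusted p = 1.09e-08).

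Among these 12 genes were the Wnt pathway kinase gene mom-4 (2.3 ± 0.19), the Ror receptor gene cam-1 (2.26 ± 0.14), the Ras GTPase-activating protein gene gap-2 (2.25 ± 0.10) and the Numb homolog num-1 (2.16 ± 0.10). The ubiquitin ligase adapter gene zif-1, which acts in the removal of germline proteins from somatic cells of the embryo, stood at 111, 117 and 118 CPM in P-bodies and 25.04, 24.6 and 24.2 in whole animals (2.23 ± 0.09, adjusted p = 2.42e-09). The others were the transporter gene mfsd-13.1 (2.3 ± 0.16), the cyclophilin gene cyn-8 (2.25 ± 0.17), the gap junction gene inx-3 (2.2 ± 0.11) and the fatty acid hydroxylase gene fath-1 (2.2 ± 0.14). In dissected oocytes all 12 lay near their whole-animal level, with values of oocytes over whole animals from -0.01 for num-1 to 0.49 for cyn-8, none of them called. The rise of these 12 was therefore measured almost wholly between oocytes and P-bodies. Of these 12 genes 7 are uncertain because another protein-coding gene overlaps them, rbr-2, mbk-2, gap-2, zif-1 and inx-3 on the opposite strand and mfsd-13.1 and mom-4 on their own.

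**Figure D2:**
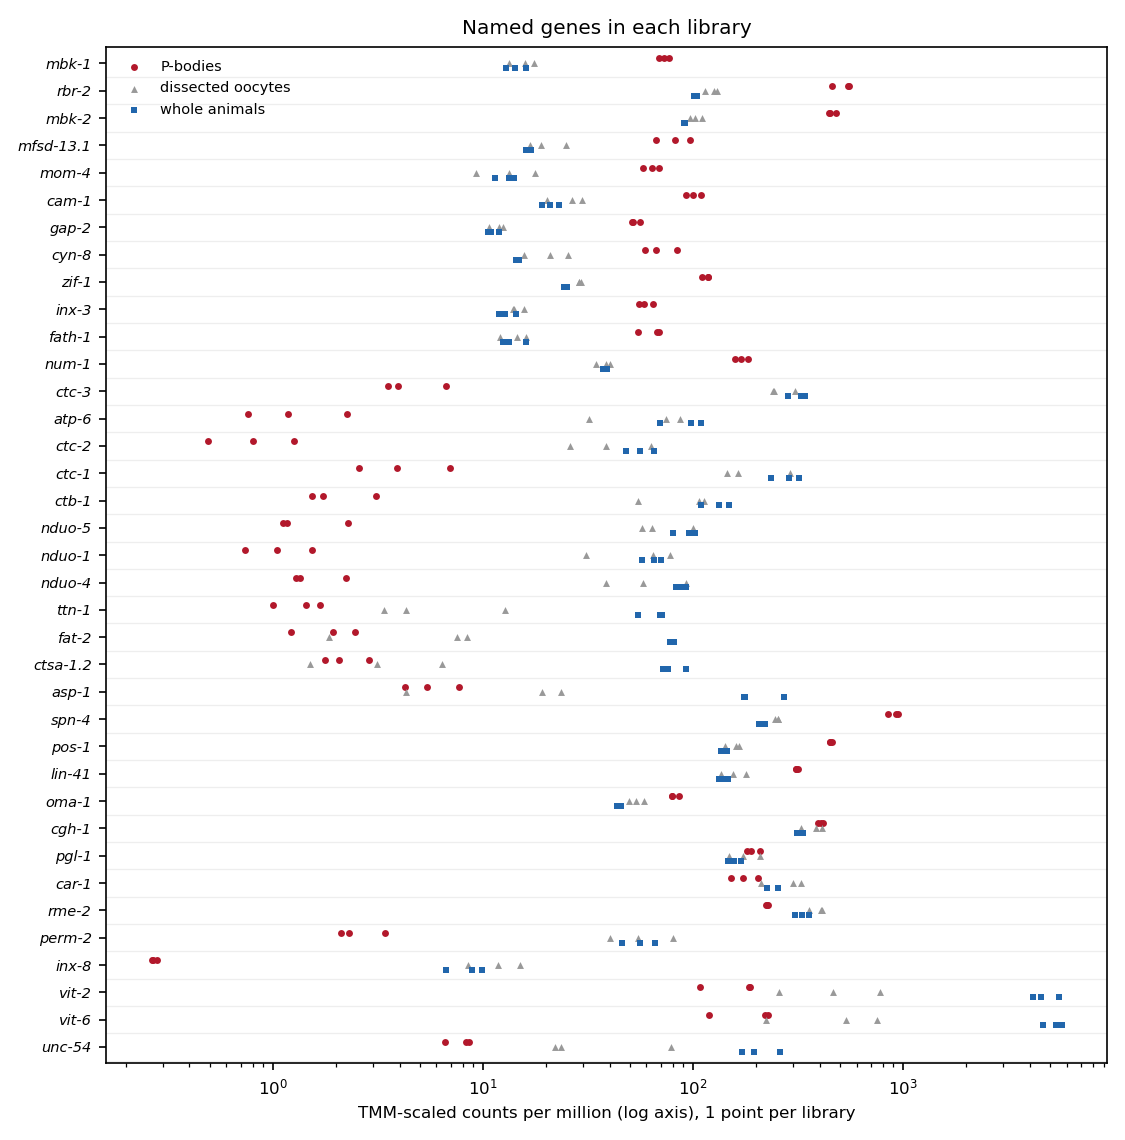
TMM-scaled CPM (horizontal log axis) of the genes with the largest rises and falls and of further named genes, with 1 point per library for P-bodies (red circles), dissected oocytes (grey triangles) and whole animals (blue squares). For mbk-1 to num-1 the oocytes lie near the whole animals, as they do for ctc-3 to nduo-4, while for ttn-1, vit-2 and unc-54 they lie between the other groups and for fat-2, asp-1 and vit-6 at least 1 oocyte library overlaps the P-bodies.

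The order of levels within each sample, taken per length as TPM ranks among protein-coding genes, showed which messages dominated. The most abundant message of P-bodies was spn-4, an RNA-binding regulator of maternal mRNA (WBGene00004984, V 6783187 to 6784922), which ranked 103 in whole animals. It was followed by the C-type lectin gene clec-87, the small heat shock protein gene sip-1, the eggshell proteoglycan gene cpg-1, the zinc finger gene pos-1, the histone variant gene htz-1, the eggshell gene cpg-2, the Y-box gene cey-3, the linker histone gene hil-5 and C05C10.5. In whole animals these 10 ranked 103, 65, 5, 8, 109, 120, 16, 85, 126 and 215. The 10 leading messages of whole animals were eef-1A.1, vit-6, vit-5, vit-2, sip-1, his-67, rpl-25.2, cpg-1, rpl-19 and rps-14. In P-bodies these ranked 28, 537, 609, 689, 3, 23, 33, 4, 502 and 494. Only sip-1 and cpg-1 stood in both lists of 10. The level of cpg-1 was nearly the same in both groups, 816, 912 and 835 CPM in P-bodies and 935, 823 and 813 in whole animals (log2 0.00 ± 0.14, adjusted p = 0.981, 3.19 with library totals). That of sip-1 was lower in P-bodies (-0.81 ± 0.14, adjusted p = 0.000219), at 2.38 with library totals.

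Messages of germline RNA-binding regulators, which hold maternal mRNA silent or release it, were mostly higher in P-bodies. Of 36 tested members 28 rose and 3 fell (77.8% and 8.33%, against 27.9% and 38.9% of all tested genes), and the median was 0.96, or 4.15 with library totals. The message of spn-4 stood at 844, 948 and 927 CPM in P-bodies and at 220, 206 and 207 in whole animals, a 4.30-fold rise (2.1 ± 0.11, adjusted p = 1.52e-08). The groups were far apart, and oocytes at 251 ± 5.41 CPM (SD, n = 3) lay just above whole animals. The message of pos-1, needed for germline and posterior fates (WBGene00004078, V 8414085 to 8415254), stood at 447, 448 and 460 CPM against 136, 138 and 146 (1.69 ± 0.10, adjusted p = 4.33e-08). That of lin-41, a repressor that keeps growing oocytes from maturing early (I 9334812 to 9342496), stood at 308, 309 and 317 CPM against 146, 138 and 133 (1.16 ± 0.12, adjusted p = 2.14e-06). Its partner oma-1, a zinc finger gene of oocyte maturation, had a smaller rise of 0.87 ± 0.10 (adjusted p = 4.86e-06).

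Both directions occurred within a family. The Y-box gene cey-3 rose by 0.95 ± 0.12 (adjusted p = 1.17e-05), while cey-2 stood at 232, 234 and 226 CPM in P-bodies and 454, 386 and 427 in whole animals. It was the member with the largest fall, -0.87 ± 0.12 (adjusted p = 3.55e-05), at 2.32 with library totals. Among 35 messages reported as bound by oocyte and embryo repressors, 28 were called higher and 3 lower (80% and 8.57%, median 1.15, and 4.34 by library totals). The shares of all tested genes were 27.9% and 38.9%. Beside mbk-2 and zif-1 they held the Nanos family gene nos-2 (1.74 ± 0.1) and glp-1, the Notch receptor of the germline, at 318, 346 and 358 CPM against 126, 122.3 and 127 (1.45 ± 0.11, adjusted p = 1.47e-07), both named after their values were seen. The yolk receptor gene rme-2, another member, went the other way, with 224, 228 and 223 CPM in P-bodies and 355, 307 and 329 in whole animals (-0.55 ± 0.11, adjusted p = 0.000584, 2.64 with library totals). The genes spn-4, nos-2 and glp-1 each share sequence with a gene of the opposite strand, which makes their values uncertain.

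Other germline lists also had more members called higher than lower, but by smaller margins. The shares of all tested genes were 27.9% higher and 38.9% lower. In the germline's small RNA pathways 23 of 39 genes rose and 8 fell (59% and 20.5%, median 0.57). The gene rde-11, a factor of RNA interference, stood at 1.51 ± 0.16. Of 40 meiotic chromosome genes 22 rose and 6 fell (median 0.46), led by the pairing protein gene zim-1 at 1.82 ± 0.10, which a gene on its own strand overlaps. Of 39 genes of chromatin and histone modification 21 rose and 11 fell (53.8% and 28.2%, median 0.40). Maternal patterning and polarity genes were split, with 14 of 36 higher and 11 lower (38.9% and 30.6%, median 0.01). The Frizzled receptor gene mom-5 led that list at 1.95 ± 0.16 and is overlapped on the opposite strand. Of 14 tested members of a list of early zygotic genes 6 rose and 2 fell (42.9% and 14.3%), and another 17 were too low to test. A low member can pass the filter through P-bodies alone, so these rises can follow in part from the filter. Among the 2 that fell was cey-2, also a member of the regulators above. It stood at 460 CPM in dissected oocytes, so the list was not limited to messages that the embryo itself switches on. The medians of the small RNA, meiotic, chromatin, patterning and early zygotic lists with library totals were 3.76, 3.65, 3.58, 3.20 and 4.16, against 3.00 for all genes, and no member of them was called lower with that scaling.

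The messages of the granules' own proteins showed no common direction. The list of P-body and mRNA decay components had 31 members, of which 9 were called higher and 10 lower (29% and 32.3%), near the shares of all genes (median -0.09, and 3.1 by library totals). The decapping enzyme gene dcap-2 stood at 159, 171 and 172 CPM in P-bodies and 37.1, 38.4 and 38.7 in whole animals (2.14 ± 0.11, adjusted p = 1.20e-08), and is overlapped on the opposite strand. The gene of its partner, patr-1, named after its values were seen, stood at 408, 513 and 454 CPM against 168, 152 and 169 (1.49 ± 0.12, adjusted p = 3.22e-07). At the other end the poly(A)-binding protein gene pab-2 stood at 5.78, 6.19 and 5.30 CPM against 37.5, 39.7 and 31.4 (-2.65 ± 0.29, adjusted p = 3.88e-05, 0.54 with library totals).

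The genes of the marker proteins moved little. The tagged car-1 (WBGene00012484, I 12904470 to 12906212) stood at 173, 204 and 152 CPM in P-bodies and 253, 224 and 226 in whole animals. Its value of -0.41 ± 0.16 passed narrowly (adjusted p = 0.0372), did not pass without P-body library 1 or 3 or any one of the whole-animal libraries (-0.42 to -0.31), and was 2.78 with library totals. The call was also lost by DESeq2 (-0.36, adjusted p = 0.0673), and by edgeR without a filter (-0.16, adjusted p = 0.247) and with the 6 libraries alone (-0.16, adjusted p = 0.214). The helicase gene cgh-1 stood at 408, 415 and 395 CPM against 333, 314 and 311 (0.35 ± 0.12, adjusted p = 0.0176), a call lost without whole-animal library 3 (0.34, adjusted p = 0.0595), with a stricter filter (0.26, adjusted p = 0.0693) and with counts thinned to equal protein-coding totals (0.2, adjusted p = 0.163). With the 6 libraries alone its value was 0.59, and without a filter 0.6. The tagged pgl-1 (WBGene00003992, IV 6974401 to 6977318) stood at 181, 209 and 188 CPM against 170, 147 and 157, without overlap, and did not pass (0.29 ± 0.13, adjusted p = 0.0681). It passed by edgeR with protein-coding totals (0.33, adjusted p = 0.00686), without a filter (0.54, adjusted p = 8.22e-06) and with the 6 libraries alone (0.53, adjusted p = 0.000299), and by DESeq2 (0.34, adjusted p = 0.0307). With library totals cgh-1 and pgl-1 stood at 3.54 and 3.48.

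Of 25 germ granule genes 6 rose and 10 fell (24% and 40%, median -0.12, or 3.07 with library totals), near the 27.9% and 38.9% of all tested genes. Fitted with the 6 compared libraries alone, these counts were 11 and 6. The germ granule scaffold gene meg-1 rose by 1.01 ± 0.09 (adjusted p = 9.71e-07), and oocytes were also above whole animals (0.46 ± 0.09, adjusted p = 0.00538). The Argonaute gene csr-1 stood at 15.04, 14.9 and 14.6 CPM in P-bodies and 61.97, 64.04 and 63.6 in whole animals, a value of -2.09 ± 0.09 (adjusted p = 3.71e-09, 1.1 with library totals). It is uncertain because of a gene on its own strand.

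Genes of the cell's division and of the eggshell were lower more often than higher. Of 59 genes of cell cycle, spindle and centrosome 33 fell and 11 rose (55.9% and 18.6%, median -0.36, or 2.83 with library totals). The checkpoint kinase gene bub-1 stood at 16.21, 15.5 and 15.9 CPM in P-bodies and 59.5, 55.4 and 59.5 in whole animals (-1.87 ± 0.11, adjusted p = 2.12e-08, 1.31 with library totals). The phosphatase gene cdc-25.3, overlapped on the opposite strand, stood at the other end with 2.05 ± 0.15. Of 25 genes of eggshell, yolk uptake and egg activation 13 fell and 4 rose (52% and 16%, median -0.37, or 2.82 with library totals). Among all tested genes 38.9% fell and 27.9% rose. A pair of genes of the eggshell's permeability barrier stood far below the rest. The message of perm-2 (WBGene00016636, IV 1126790 to 1128848, overlapped on the opposite strand) stood at 3.42, 2.1 and 2.29 CPM in P-bodies and 65.9, 55.6 and 46.0 in whole animals. That of perm-4, its neighbour at IV 1121457 to 1125107 and named after its values were seen, stood at 6.94, 6.75 and 3.99 CPM against 123, 123 and 104.2. The values were -4.42 ± 0.32 and -4.31 ± 0.31 (adjusted p = 3.06e-06 and 2.89e-06), and they stayed negative with library totals, at -1.23 and -1.12. Oocytes were at the whole-animal level for both, at 58.2 ± 20.1 and 128 ± 46.1 CPM (SD, n = 3).

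Messages of the translation machinery were lower in P-bodies relative to the typical gene, and those of ribosomal proteins most of all. Of 82 tested ribosomal protein genes 81 fell and none rose (98.8% lower, median -3.24), while 38.9% of all tested genes fell and 27.9% rose. With library totals the median was -0.05, with 16 called higher and 20 lower, so that relative to all RNA, ribosomal RNA included, they had no common direction. As a share of protein-coding counts the 83 genes took 0.663%, 0.683% and 0.514% in P-bodies and 5.26%, 4.76% and 4.77% in whole animals, 7.96 times as much. The message of rpl-19 stood at 23.1, 38.2 and 17.6 CPM against 324, 292 and 279 (-3.50 ± 0.38, adjusted p = 6.49e-05, -0.31 with library totals), and that of rps-14 had a value of -3.44 ± 0.21 (-0.24 with library totals).

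The copies rpl-25.2 and rpl-25.1 were both lower, by different amounts. The gene rpl-25.2 stood at 58.9, 92.8 and 58.8 CPM in P-bodies and 279, 227 and 239 in whole animals (-1.82 ± 0.22, 1.37 with library totals). Its copy rpl-25.1, named after its values were seen, stood at 0.2496, 0.354 and 0.279 CPM against 9.38, 10.45 and 6.46 (-4.88 ± 0.40, -1.69 with library totals). The value for oocytes over whole animals was -0.04 ± 0.22 for rpl-25.2 and -2.2 ± 0.37 for rpl-25.1. Another gene of a pair, rpl-11.2, had the largest fall of the list at -5.08 ± 0.18 (-1.89 with library totals), with -1.84 ± 0.16 of it between oocytes and whole animals. Reads of such copies can be split by the counting, so single values are uncertain.

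Of 39 translation factors 25 fell and 4 rose (median -0.86), of 31 aminoacyl-tRNA synthetases 20 and 5 (median -0.92), of 8 TRiC chaperonin subunits 8 and 0 (median -1.45) and of 33 proteasome genes 26 and 0 (median -0.76). The elongation factor gene eef-1A.1, the leading message of whole animals, stood at 260, 283 and 203 CPM in P-bodies and 1981, 1464 and 1461 in whole animals (-2.72 ± 0.22, adjusted p = 4.10e-07). It stood at 0.48 with library totals and is overlapped on the opposite strand. Among subunits of TRiC, the complex that folds actin and tubulin, cct-5 fell most, from 85.2, 62.3 and 67.2 CPM in whole animals to 12.4, 12.57 and 11.22 (-2.57 ± 0.14, 0.62 with library totals). The valyl-tRNA synthetase gene vars-1 stood apart from its list with 59.1, 60.6 and 70.6 CPM in P-bodies and 21.04, 21.6 and 17.6 in whole animals (1.66 ± 0.11, adjusted p = 7.53e-08). Of 26 nuclear pore genes 15 fell and 2 rose (57.7% and 7.69%, median -0.61). Of 23 chaperone genes 16 fell and 2 rose (69.6% and 8.7%, median -1.41), with the heat shock factor gene hsf-1 rising by 1.69 ± 0.12. With library totals the medians of these 6 lists were 2.33, 2.27, 1.74, 2.43, 2.58 and 1.78, all positive and all below the 3.00 of all genes.

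Histone messages were mostly lower. Of 48 tested histone genes of 80, 32 fell and 6 rose (66.7% and 12.5%, median -1.88, or 1.29 with library totals). The shares of all tested genes were 38.9% and 27.9%. The core histone gene his-67 stood at 92.7, 84.5 and 70.3 CPM in P-bodies and 463, 316 and 363 in whole animals (-2.21 ± 0.29, 0.98 with library totals). The H2A.Z gene htz-1 stood at 201, 275 and 217 CPM against 92.4, 73.8 and 78.8 (1.5 ± 0.18, adjusted p = 1.47e-05), and the linker histone gene hil-5 at 263, 248 and 261 against 102, 78.3 and 86.8 (1.53 ± 0.11, adjusted p = 1.63e-07). Core histone genes exist in near-identical copies, and their single values are uncertain.

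Under the same limits as for the rises, 8 of the 12 largest falls were of mRNA made inside mitochondria. All 12 mitochondrially encoded mRNAs fell, from -6.22 to -5.12 with a median of -5.96, and all 12 stayed lower with library totals (median -2.77). As a share of protein-coding counts they took 0.00902%, 0.00713% and 0.0155% in P-bodies and 0.526%, 0.734% and 0.683% in whole animals, 61.3 times as much. The cytochrome oxidase gene ctc-3 (WBGene00010962, MtDNA 5678 to 6449) stood at 3.54, 3.93 and 6.66 CPM in P-bodies and 282, 340 and 326 in whole animals (-6.07 ± 0.26, adjusted p = 1.5e-08). Its level in oocytes, 263 ± 38 CPM (SD, n = 3), overlapped that of whole animals (-0.27 ± 0.21, adjusted p = 0.484). The other cytochrome oxidase genes ctc-2 and ctc-1 had values of -6.05 ± 0.50 and -5.97 ± 0.50, the cytochrome b gene ctb-1 -5.95 ± 0.42, the ATP synthase gene atp-6 -6.05 ± 0.61, and the complex I genes nduo-5, nduo-1 and nduo-4 -5.94 ± 0.38, -5.87 ± 0.45 and -5.77 ± 0.40. For atp-6, nduo-5 and nduo-1 a neighbour on the same strand overlaps, and their values are uncertain. The nuclear-encoded partners of these proteins fell far less. Of 41 nuclear-encoded genes of the respiratory chain and ATP synthase 31 fell and 4 rose (75.6% and 9.76%, median -0.94, or 2.25 with library totals). Of 18 glycolysis genes 15 fell and 0 rose (83.3% lower, median -1.66, or 1.53). Of 21 genes of the V-ATPase, the proton pump of acidic organelles, 13 fell and 3 rose (61.9% and 14.3%, median -0.58, or 2.62). Among all tested genes 38.9% fell and 27.9% rose.

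Somatic tissue is placed by the labels in whole animals but not in the sorted fraction, and several lists of its messages were among the lowest. All 6 vitellogenin genes, which the intestine transcribes to make yolk for the oocytes, fell, from -4.89 to -4.56 (median with library totals -1.63). They took 9.71%, 9.54% and 8.508% of the protein-coding counts of whole animals and 0.411%, 0.370% and 0.222% of those of P-bodies. The message of vit-6 (WBGene00006930, IV 8261134 to 8266462) stood at 221, 227 and 120 CPM in P-bodies and 5679, 5364 and 4623 in whole animals (-4.79 ± 0.47, adjusted p = 1.83e-05). That of vit-2, overlapped on the opposite strand, stood at 186, 184 and 108 CPM against 5518, 4534 and 4132 (-4.89 ± 0.43, adjusted p = 5.92e-06), and that of vit-5 had a value of -4.88 ± 0.51. P-body library 3 was the lowest for all 3 genes. For vit-6 oocytes stood at 755, 221 and 533 CPM, so that the oocyte and P-body libraries overlapped. Vitellogenin counts in P-bodies were not low in number, with 31635 to 67868 counts of vit-6 per library.

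The lists of intestine, muscle and 4 gene families expressed largely in the soma had medians from -4.99 to -4.6. Among all tested genes 38.9% fell and 27.9% rose. Of 36 tested intestine markers 32 fell and 1 rose (88.9% and 2.78%, median -4.87). Of 37 muscle markers 32 fell and 0 rose (86.5% lower, median -4.90). Of 57 tested cuticle collagens of 156, 41 fell and 0 rose (71.9% lower, median -4.60). Of 29 tested neuropeptide genes of 144, 25 fell and 1 rose (86.2% and 3.45%, median -4.94). Of 50 tested C-type lectin and lysozyme genes of 256, 40 fell and 4 rose (80% and 8%, median -4.99). Of 28 tested transthyretin-related genes of 58, 25 fell and 2 rose (89.3% and 7.14%, median -4.76). The medians of these 6 lists with library totals were -1.69, -1.72, -1.43, -1.82, -1.81 and -1.59. In the last 4 of these lists most members were too low to test, so the counts cover only the messages high enough to test. The filter can keep a gene through 1 group alone. A low member kept only through whole animals was thereby bound towards a fall, so the common direction of these 4 lists follows in part from the filter. Intestine markers took 0.0398% to 0.0497% of protein-coding counts in P-bodies and 0.525% to 0.589% in whole animals, and muscle markers 0.130% to 0.161% against 0.630% to 0.777%. No intestine or muscle marker had 0 counts in all P-body libraries. Of the collagens 25 of 156 had 0 counts in all P-body libraries and 31 in all whole-animal libraries, and of the neuropeptide genes 39 and 31 of 144.

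Single genes of the intestine and cuticle reached similar values. The desaturase gene fat-2 (IV 13323850 to 13326394) stood at 2.45, 1.21 and 1.93 CPM in P-bodies and 77.5, 80.7 and 80.5 in whole animals (-5.42 ± 0.54, adjusted p = 8.17e-05, -2.23 with library totals). The aspartyl protease gene asp-1 of the intestine stood at 7.69, 5.44 and 4.26 CPM against 270, 174 and 178 (-5.16 ± 0.64, adjusted p = 0.000332), and the carboxypeptidase gene ctsa-1.2, overlapped on the opposite strand, had a value of -5.17 ± 0.45. The lysozyme gene lys-4 had the largest fall among intestine markers, at -5.54 ± 0.76. The adult cuticle collagen gene col-19, overlapped on the opposite strand, had a value of -5.08 ± 0.93 (adjusted p = 0.00228). The lectin gene clec-87 went against its family, with 486, 386 and 508 CPM in P-bodies and 184, 146 and 156 in whole animals (1.5 ± 0.14, adjusted p = 1.36e-06), and is overlapped on the opposite strand.

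Muscle genes were not all alike. The body wall myosin gene unc-54 (WBGene00006789, I 14855901 to 14863573) stood at 8.28, 8.53 and 6.62 CPM in P-bodies and 258, 194 and 171 in whole animals (-4.73 ± 0.58, adjusted p = 0.000283, -1.54 with library totals), and the titin gene ttn-1, overlapped on the opposite strand, had a value of -5.57 ± 0.54. The pharyngeal myosin genes myo-1 and myo-2 were much lower still, the second named after its values were seen. The message of myo-1 was counted 8, 1 and 10 times in P-bodies and 285, 188 and 198 times in whole animals, and that of myo-2 9, 9 and 11 times against 237, 177 and 247. The values were -8.73 ± 0.61 and -8.10 ± 0.42 (adjusted p = 3.39e-07 and 1.28e-08), or -5.56 and -4.93 with library totals. In oocytes they stood at 0.103 ± 0.0985 and 0.0329 ± 0.057 CPM (SD, n = 3), with values of P-bodies over oocytes of -2.44 ± 0.81 for myo-1 (adjusted p = 0.0252) and -0.53 ± 0.71 for myo-2, whereas unc-54 stood at 41.4 ± 32.2 CPM there.

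Markers of the gonad's own somatic cells were mostly lower as well. Of 20 tested markers of gonadal sheath and spermatheca 17 fell and 1 rose (85% and 5%, against 38.9% and 27.9% of all tested genes). Their median was -3.21, or -0.03 with library totals, where 7 were called lower and 6 higher. The innexin gene inx-8 of the sheath (WBGene00002130, IV 11673816 to 11675635) stood at 0.265, 0.267 and 0.279 CPM in P-bodies and 6.66, 8.89 and 9.84 in whole animals (-4.97 ± 0.25, adjusted p = 1.09e-08, -1.78 with library totals). In dissected oocytes it stood at 11.8 ± 3.28 CPM (SD, n = 3), not below whole animals (oocytes over whole animals 0.48 ± 0.21, adjusted p = 0.167). The neighbouring gene inx-9, overlapped on the opposite strand and named after its values were seen, had the same pattern, with -4.39 ± 0.50 for P-bodies over whole animals and 0.17 ± 0.44 for oocytes over whole animals.

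Lists of neurons, hypodermis, and coelomocytes and excretory cells had higher medians. Many members were too low to test, with the same limit from the filter. Of 40 neuron markers 22 were tested, 11 fell and 2 rose (50% and 9.09%, median -1.36, or 1.82 with library totals). The lipid-binding chaperone gene unc-119 rose, with 24.7, 34.4 and 25.9 CPM in P-bodies and 8.90, 8.34 and 9.15 in whole animals (1.69 ± 0.23, adjusted p = 7.13e-05). Its level in oocytes was 11.19 ± 4.26 CPM (SD, n = 3), and its difference from whole animals did not pass (0.34 ± 0.23, adjusted p = 0.41). Of 22 tested hypodermis markers 13 fell and 3 rose (59.1% and 13.6%, median -2.23, or 0.94 with library totals). Of 9 tested coelomocyte and excretory markers 3 fell and 2 rose (33.3% and 22.2%, near the 38.9% and 27.9% of all genes, median -0.62, or 2.57). The coelomocyte and excretory list took 0.0565% ± 0.000492 of protein-coding counts in P-bodies and 0.0248% ± 0.0025 in whole animals (SD, n = 3).

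**Figure D3:**
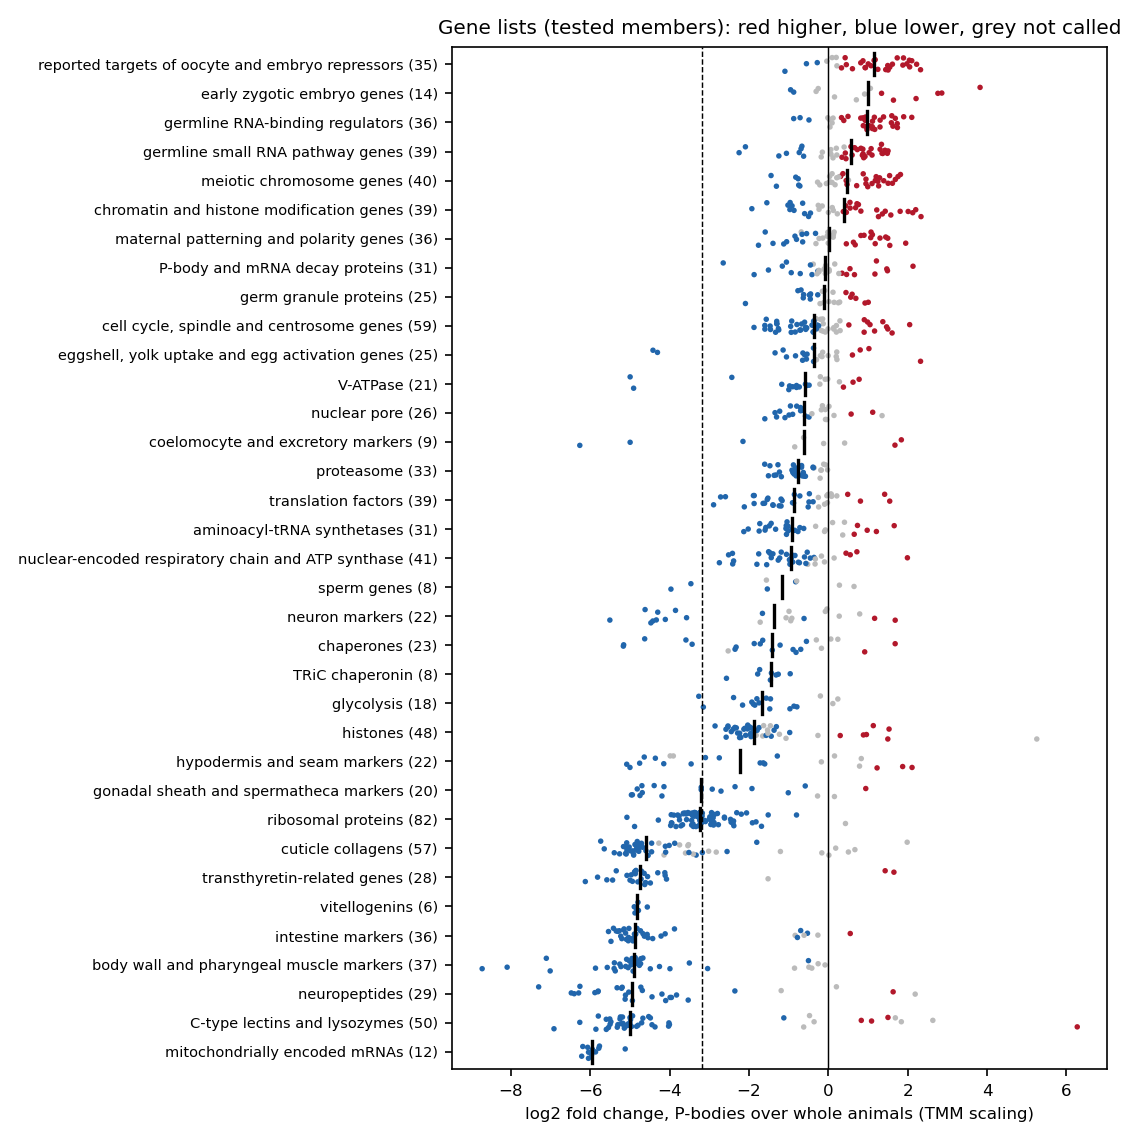
Log2 fold change of P-bodies over whole animals for each tested member of 35 gene lists (1 point per gene, red called higher, blue called lower, grey not called, with the number tested in parentheses), with the list median as a black bar, lists in order of their median, and no change marked for TMM (solid) and for library totals (dashed). Germline regulators lie right of 0, ribosomal proteins around the dashed line, and vitellogenins, intestine, muscle and mitochondrial mRNAs left of it.

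The step at which each list differed can be read from the side values, which share the P-body or the whole-animal libraries and so are not independent of the main values. For germline RNA-binding regulators the median was 0.95 for P-bodies over oocytes and 0.13 for oocytes over whole animals, and for ribosomal proteins -3.04 and -0.17. For mitochondrially encoded mRNAs these medians were -5.53 and -0.36. For vitellogenins they were -1.39 and -3.34, for intestine markers -1.41 and -3.29, for C-type lectins and lysozymes -1.35 and -3.35, and for neuropeptides -0.87 and -3.18. Muscle markers, with -2.52 and -1.79, and sheath and spermatheca markers, with -1.97 and -0.94, differed more in the step to P-bodies. By these medians the vitellogenin, intestine, muscle and neuropeptide lists stood lower in dissected oocytes than in whole animals. Relative to the typical gene they stood lower again in P-bodies. These side values use TMM alone, whose scaling factors were 3.64 to 3.81 in P-bodies and 0.576 to 0.719 in dissected oocytes. Library totals would raise the values of P-bodies over oocytes and can turn the sign of the smaller falls. The lists of germline RNA-binding regulators, ribosomal proteins and mitochondrially encoded mRNAs differed almost wholly between oocytes and P-bodies. Other germline lists were less one-sided, with 0.30 and 0.18 for chromatin genes and -0.33 and 0.19 for germ granule genes.

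**Figure D4:**
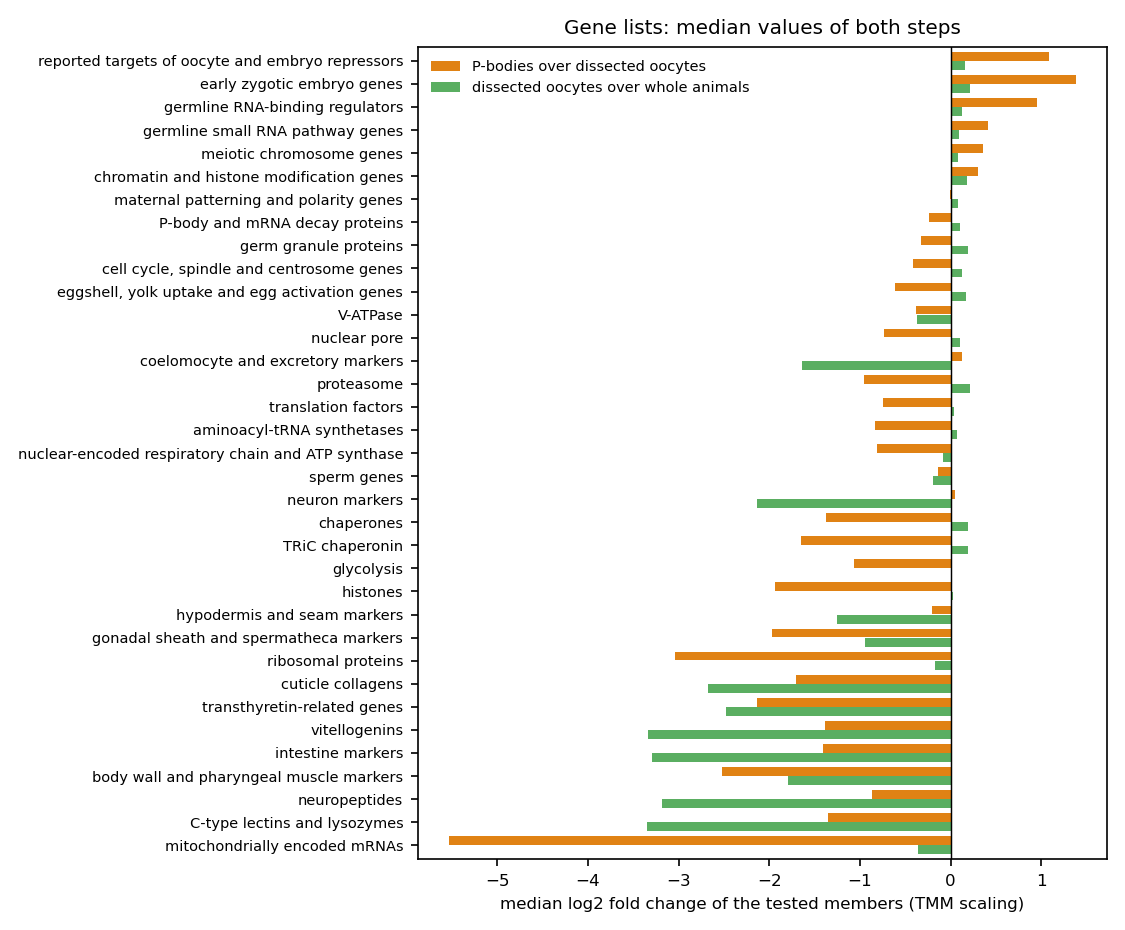
Median log2 fold change (horizontal axis, TMM scaling) of the tested members of each gene list for P-bodies over dissected oocytes (orange) and for dissected oocytes over whole animals (green), with lists in the order of their median for P-bodies over whole animals. Vitellogenins show the green bar as the longer, at -3.34, and mitochondrially encoded mRNAs the orange bar, at -5.53.

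Structured RNA was mostly lower in P-bodies as well, relative to the typical gene. Outside the ribosomal RNA genes, protein-coding genes took 99.1%, 99.4% and 99.2% of counts in P-bodies and 90.9%, 88.0% and 87.9% in whole animals, and small nucleolar RNA took 0.0270%, 0.00955% and 0.0196% against 0.183%, 0.438% and 0.484%. Of all counts, small nucleolar RNA took 0.01674%, 0.006705% and 0.01326% in P-bodies and 0.01532%, 0.03613% and 0.04145% in whole animals, so the groups overlapped. Small nuclear RNA took 0.00406% of all counts on average in P-bodies and 0.00254% in whole animals. All but 3 of 125 tested small nucleolar RNA genes fell and 2 rose (median -6.13, or -2.97 with library totals). All 26 tested transfer RNA genes fell (median -8.45, or -6.17), as did all 11 tested ribosomal RNA genes (median -6.18, or -2.997), and 20 of 28 small nuclear RNA genes (median -2.81, or 0.36). Their side medians for oocytes over whole animals were 0.40, 0.31, -0.60 and 0.39. Among all tested genes 38.9% fell and 27.9% rose. All transfer RNA genes together took 3.53e-05%, 1.91e-05% and 2.98e-05% of all counts in P-bodies and 0.000527%, 0.00117% and 0.00175% in whole animals. At such levels these genes passed the filter through whole animals or oocytes, where they are higher, so their common direction followed from the filter. Low genes of small nucleolar and small nuclear RNA can be kept in the same way, so their direction can follow in part from the filter. Copies of transfer and ribosomal RNA genes are near-identical, and their single values are uncertain.

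The direction varied with the chromosome and with the length of the message. On chromosomes I, II and III 31.9%, 30.2% and 30.6% of tested genes were called higher and 33.1%, 35.3% and 34.5% lower. On chromosome X 21.4% of 1267 genes were higher and 47.5% lower, and the median was -0.71 (2.46 with library totals). Chromosomes IV and V lay between, with medians of -0.21 and -0.46. The side medians for X were -0.18 for P-bodies over oocytes and -0.39 for oocytes over whole animals. All 17 tested genes of the mitochondrial genome were lower. By annotated 3' UTR length, the share of genes called higher went from 19% in the shortest of 5 equal bins (1 to 82 nucleotides) through 27%, 32.3% and 33.5% to 35.5% in the longest (340 to 3657 nucleotides). The medians were -0.64, -0.17, -0.05, 0.01 and 0.05. By coding length, the share called lower was 35% and 31% in the 2 shortest bins and 47% in the longest, while the share called higher stayed between 27.3% and 30.4%. These shares are descriptions across genes, which are not independent, and they were not tested.

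**Figure D5:**
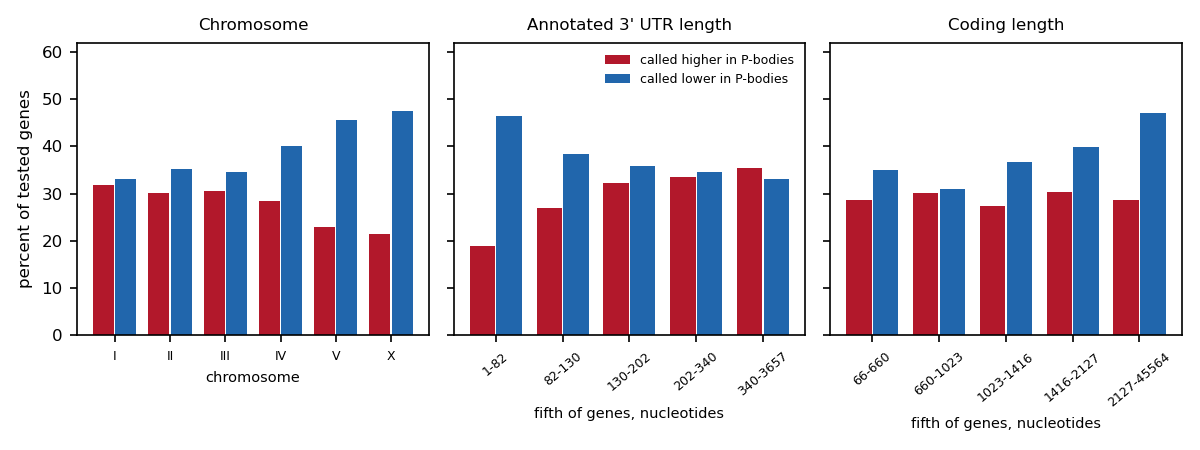
Percent of tested genes called higher (red) and lower (blue) in P-bodies against whole animals by chromosome (left, all tested genes of the nuclear genome) and, for protein-coding genes, by 5 equal bins of annotated 3' UTR length (middle) and of coding length (right, both in nucleotides). Among chromosomes, X has the largest gap, 21.4% against 47.5%, and the shortest 3' UTRs have 19% higher and 46.4% lower.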

How the data were processed

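RNA was sequenced from 9 libraries, of which the 3 of sorted P-bodies and the 3 of whole animals are compared here. RNA was taken with an FFPE kit after crosslink reversal and made into stranded paired-end total RNA libraries from a small input, per the labels' protocols. The authors deposited raw counts per gene, credited by the table's name to HTSeq. They also deposited TPM, FPKM and mean coverage per base from StringTie, per the file headers, of which TPM served ranks and an alternative, coverage an alternative for the shares of RNA classes alone, and FPKM no result. HISAT2 2.1.0 and the build WBcel235 are named in the submitters' processing notes. The strand setting of the counting is not given in the sources used here, so a named gene is called uncertain where a second protein-coding gene overlaps it. Coordinates are those of the deposited table, and biotypes and lengths come from the Ensembl annotation of WBcel235, which held 46603 of 46778 identifiers.

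Counts were tested in R 4.3.3 with edgeR 4.0.16 by quasi-likelihood, with TMM, robust estimation and all 9 libraries in 1 fit, which left 6 residual degrees of freedom. Low genes were removed by the filter of the tool by group (minimum count 10, minimum total 15). A low gene can pass it through 1 group alone, and its direction then follows in part from the filter. The edgeR step was tested on simulated data in which few genes changed, equally often in both directions. The real data are unlike that, so the scaling was not tested by it. Fold changes on log2 scale carry SE, and nothing says that replicates came from separate cultures, so p-values reflect just how far these libraries vary, possibly for technical reasons. Alternatives used DESeq2 1.42.0 and limma 3.58.1 on log2(TPM + 1) or log2(TPM + 0.1).

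The comparison, the gene lists and the tests were chosen with earlier results of these data known. The text names per direction, the 12 called protein-coding genes of largest change that carry a class symbol, reach 50 CPM in the group where they are higher and have no overlapping libraries (leaving out the msp, his, rpl, rps and col families), the 10 highest TPM values of each group, 9 preset genes, and a choice of the members with the largest called change in each list. Genes outside this rule are marked.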

Additional observations from a re-analysis of the deposited data

How the results depend on the processing

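Directions relative to the typical gene depended on the scaling, since library totals and TPM both count ribosomal RNA in the total. Scaling by library totals called 7781 genes higher and 989 lower, on log2(TPM + 1) 6690 and 757, on log2(TPM + 0.1) 6654 and 682, and on log2(TPM + 1) without a filter 7938 and 1547. Genes that turned positive are given with library totals, log2(TPM + 1), the same with or without the filter, and log2(TPM + 0.1). They were cey-2 at 2.32, 2.09 and 2.09, car-1 at 2.78, 2.52 and 2.53, pab-2 at 0.54, 0.24 and 0.25, csr-1 at 1.1, 0.78 and 0.81, bub-1 at 1.31, 1.03 and 1.07, rme-2 at 2.64, 2.39 and 2.40, and sip-1 at 2.38, 2.15 and 2.15. The same held for his-67 at 0.98, 0.76 and 0.76, rpl-25.2 at 1.37, 1.1 and 1.1, eef-1A.1 at 0.48, 0.23 and 0.23, and cct-5 at 0.62, 0.40 and 0.41. The genes cpg-1 and cpg-2, not called, stood at 3.19, 2.95 and 2.95 and at 2.99, 2.76 and 2.76. The value of cpg-1 was also positive with protein-coding totals and DESeq2 (both 0.04), no filter (0.25) and the 6 libraries alone (0.24), and ran from -0.04 to 0.08 with 1 library left out. That of cpg-2 was 0.05 with no filter and with the 6 libraries alone. Without 1 library in turn, 2582 to 2696 genes were higher and 3730 to 3825 lower. With the 6 libraries alone 3787 were higher and 3551 lower, and 51.6% of calls were higher against 41.8%. With a replicate block 2795 genes were higher and 3855 lower, and all 83 named genes checked kept direction and side of the threshold. Same-numbered P-body and whole-animal libraries correlated at -0.00643, -0.0415 and 0.142, so the numbers were not taken as pairs. Whole animals had 3226465 to 5129627 protein-coding counts, which limits their low messages.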
